A study of Drosophila melanogaster with 16 samples.

Results

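Nicotinic acetylcholine receptors are built from subunits that in Drosophila melanogaster are encoded by 10 genes, nAChRalpha1 to nAChRalpha7 and nAChRbeta1 to nAChRbeta3. The family was chosen with earlier results of these data known. All transcript rows of its genes were then taken from the deposited tables by their FlyBase annotation, with no filter on measured values. That gave 33 transcripts of 31049 and 10 genes of 14458, and every annotated transcript of the 10 genes was present in both tables. The tables came from EC-tagging of larval brain RNA, in which a cytosine deaminase and uracil phosphoribosyltransferase fusion (CD:UPRT) lets the cells that carry it turn 5-ethynylcytosine (5EC) into a nucleotide that enters new RNA and can be pulled down. In the neuroblast libraries insc-Gal4, a driver of neural progenitors, expressed UAS-CD:UPRT, and in the neuron libraries nSyb-Gal4, a driver of differentiated neurons, expressed the same transgene. Both sets of larvae (L3, 25 °C) were fed 1 mM 5EC from 72 to 84 h after hatching, and RNA was taken at the end of this pulse or after 3, 6 or 12 h in medium with 10 mM uridine. There were 2 libraries for each cell type and time point, 16 in all.

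The receptor is a ring of 5 subunits around a cation pore and belongs to the Cys-loop family of ligand-gated channels. Acetylcholine is the main fast excitatory transmitter of the insect central nervous system, so these receptors carry much of the excitation between central neurons, whereas the larval neuromuscular junction of flies uses glutamate. Alpha subunits carry a pair of adjacent cysteines in the ligand-binding site and beta subunits lack it. Several insecticides act on the family, the neonicotinoids and the spinosyns among them.

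Several properties of the libraries bear on the values below. Cells were not sorted, the central nervous system was dissected crudely, and no library from larvae without CD:UPRT was analysed here. Library totals were 11053900 to 31713700 estimated counts in neuroblasts and 44317900 to 211110000 in neurons. A floor of 3 counts for a gene not detected corresponded to 0.0946 to 0.271 CPM in neuroblasts and 0.0142 to 0.0677 CPM in neurons. CPM is the count scaled to the same total in every library, and the floor covers counting error only. It was not used to remove values, so levels that rest on 3 counts or fewer are printed below as they stand. The 4 neuron libraries numbered replicate 1 held 86.3% to 92.1% mitochondrial counts, against 2.75% to 11.9% in replicate 2, so levels are given as TPM over transcripts of the nuclear genome, that is, counts divided by annotated transcript length and scaled to the same sum in every library. The 8 neuroblast libraries held muscle and fat body markers at 16238 to 77128 and 5770 to 58363 summed TPM. The methods of the study describe replicates with separate feeding and separate RNA work, but name more replicates than the 2 libraries per group analysed here. They also name duplicate RNA samples for each genotype and time point, which were labelled with biotin, captured and made into libraries. The labels do not say which feeding a library came from. The 2 libraries of a group may thus be separate feedings or duplicates of the same RNA.

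The genes lie on 4 chromosome arms (coordinates of BDGP6.54). nAChRalpha1 (FBgn0000036, 3R, 24393896 to 24457157, minus strand), nAChRalpha2 (FBgn0000039, 3R, 24485428 to 24491147, plus strand) and nAChRbeta2 (FBgn0004118, 3R, 24509228 to 24515106, minus strand) form a cluster of 121211 bases, with 28270 bases between the first pair and 18080 between the second. nAChRalpha3 (FBgn0015519, X, 8276200 to 8367169, minus strand) and nAChRalpha7 (FBgn0086778, X, 19327075 to 19348447, minus strand) are on the X chromosome. nAChRalpha4 (FBgn0266347, 3L, 23206669 to 23287448, plus strand) and nAChRbeta1 (FBgn0000038, 3L, 4429349 to 4435993, plus strand) are on 3L. nAChRalpha5 (FBgn0028875, 2L, 14040170 to 14094401, plus strand), nAChRalpha6 (FBgn0032151, 2L, 9793317 to 9886250, minus strand) and nAChRbeta3 (FBgn0031261, 2L, 545129 to 547096, plus strand) are on 2L. The genes differ in size, from 1968 bases for nAChRbeta3 to 92934 bases for nAChRalpha6, and nAChRalpha6 also has the most annotated transcripts, 7.

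Summed over the 10 genes, the family stood higher in both neuron libraries than in both neuroblast libraries at each chase time, but not at the end of the pulse, and the neuron replicates were far apart from each other. In neuroblasts the summed level was 186 and 212 TPM at the end of the pulse, 208 and 167 at 3 h, 96.2 and 89.1 at 6 h, and 0.659 and 41.8 at 12 h. In neurons it was 69.3 and 600.4 TPM at the end of the pulse, 1369 and 513 at 3 h, 2311 and 365 at 6 h, and 1396 and 429 at 12 h (replicate 1 first throughout). The neuroblast values are lower at 6 and 12 h than before, with means of 199 ± 18.5 TPM (SD, n = 2) at the pulse and 21.2 ± 29.1 at 12 h, whereas the neuron means of 335 ± 376, 941 ± 605, 1338 ± 1376 and 912 ± 684 have SDs of the same order as the means. The neuroblast library of 12 h replicate 1 held 15 counts over all 10 genes and no gene with 10, so it carries almost no information on the family. Few transcripts of any gene were counted in it, 2244 with at least 10 counts against 8047 to 15615 in the other neuroblast libraries. Read as CPM over all counts, mitochondrial ones included, the neuron values were 33.1 to 524 in replicate 1 and 1204 to 1421 in replicate 2, the reverse of their order in TPM at 3, 6 and 12 h.

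In neurons nAChRalpha6 was the leading subunit. Its transcripts undergo A-to-I editing and its product is the target of spinosad. It was at 11.0 and 248 TPM at the pulse, 433 and 260.1 at 3 h, 356 and 178 at 6 h, and 491 and 75.9 at 12 h. It ranked first of the 10 in 6 of 8 neuron libraries and first or second in 7, with its lowest value in pulse replicate 1. nAChRalpha5, which with nAChRalpha6 and nAChRalpha7 resembles the vertebrate alpha7 subunit that can form channels by itself, was at 1.13 and 3.55 TPM at the pulse, 177 and 129 at 3 h, 575 and 55.9 at 6 h, and 113 and 60.4 at 12 h. It was thus low in both pulse libraries (19 and 1501 counts) and above 50 TPM in all 6 chase libraries. nAChRalpha7, which in flies is needed for the giant fiber escape response, had the same split, with 5.03 and 0.0103 TPM at the pulse and 19.8 to 390.4 TPM in the chase libraries. Both neuron pulse libraries held few transcripts of any gene. Only 1046 and 3176 transcripts had at least 10 counts there, against 4061 to 22337 in the neuron chase libraries. Whether the split is particular to these subunits was not tested.

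Several of the other subunits are known from neonicotinoid binding and resistance. nAChRalpha1 in neurons was at 49.1 and 139 TPM at the pulse, 221 and 18.3 at 3 h, 620.5 and 42.7 at 6 h, and 94.9 and 38.7 at 12 h. nAChRalpha1 and nAChRalpha6 were the only subunits above 10 TPM in all 8 neuron libraries. nAChRalpha3 was between 1.76 and 171 TPM, with its lowest values, 3.08 and 1.76, in the pulse libraries. nAChRalpha2, the neighbour of nAChRalpha1 in the cluster, was at 153 TPM in pulse replicate 2 and 33.9 at 12 h replicate 2, at 6.95 in 3 h replicate 1, and at 0.213 or below in the other 5. nAChRbeta1, the beta subunit that pairs with several alpha subunits in insect receptors, was at 0 and 42.5 TPM at the pulse, 22.7 and 0.0327 at 3 h, 364 and 33.6 at 6 h, and 0 and 53.2 at 12 h. nAChRbeta2 exceeded 10 TPM in only 2 neuron libraries, with 244 at 6 h replicate 1 and 36.7 at 12 h replicate 2. nAChRbeta1 at the pulse, 3 h and 12 h and nAChRbeta2 at 6 and 12 h were thus high in 1 library and at or near 0 in the other.

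nAChRalpha4, whose product redeye takes part in the control of sleep in adult flies, was at 0 and 12.7 TPM at the pulse, 94.7 and 35.0 at 3 h, 0.563 and 20.7 at 6 h, and 424 and 49.7 at 12 h in neurons. nAChRbeta3, the most divergent subunit by sequence, was nearly absent: 4 of 8 neuron libraries listed it at 0 and the highest reached 1.24 TPM. The order of medians over the 8 neuron libraries was nAChRalpha6 (254 TPM), nAChRalpha5 (86.7), nAChRalpha1 (71.996), nAChRalpha7 (54.2), nAChRbeta1 (28.2), nAChRalpha4 (27.8), nAChRalpha3 (14.6), nAChRbeta2 (0.384), nAChRalpha2 (0.180) and nAChRbeta3 (0.177). All neighbours in this order had overlapping ranges. The clearest step was the first, since nAChRalpha6 exceeded nAChRalpha5 in 7 of 8 libraries, while the next 3 steps had 4 libraries either way.

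**Figure D1:**
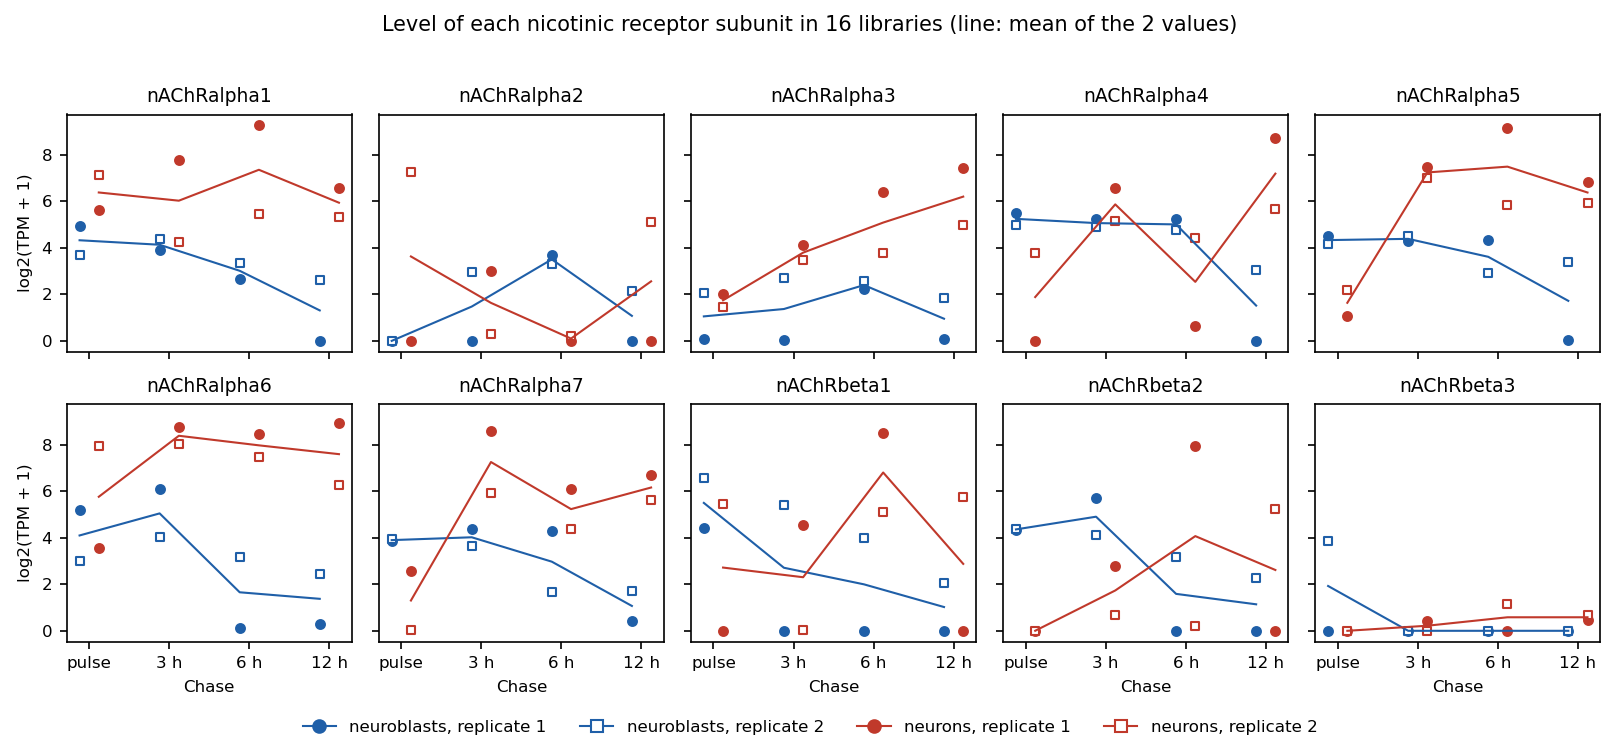
Level of each subunit as log2(TPM + 1) against time (end of pulse, then 3, 6 and 12 h of chase) in neuroblasts (blue) and neurons (red), with filled circles for replicate 1, open squares for replicate 2 and a line through the mean of the 2 values. nAChRalpha1 and nAChRalpha6 lie higher in neurons in 15 of the 16 same-time pairs of libraries, and the replicates of nAChRbeta1 and nAChRbeta2 often lie far apart.

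In neuroblasts the median level was lower than in neurons for 7 of the 10 subunits and higher for nAChRalpha2, nAChRalpha4 and nAChRbeta2, and the highest median was that of nAChRalpha4. nAChRalpha4 was at 44.8 and 30.7 TPM at the pulse, 37.0 and 28.7 at 3 h, 37.5 and 26.1 at 6 h, and 0 and 7.21 at 12 h. It ranked first in 3 of 8 libraries and first or second in 6, and up to 6 h all its values lay between 26.1 and 44.8 TPM. nAChRalpha5 was the next by median, with 21.7 and 17.0 TPM at the pulse, 18.5 and 21.6 at 3 h, 19.0 and 6.54 at 6 h, and 0.0234 and 9.65 at 12 h. nAChRalpha6, first in neurons, was at 36.0 and 6.98 TPM at the pulse, 66.9 and 15.3 at 3 h, 0.103 and 8.03 at 6 h, and 0.239 and 4.44 at 12 h, so that replicate 1 was the higher at the pulse and at 3 h and the lower afterwards.

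nAChRalpha1 in neuroblasts was at 30.1 and 12.0 TPM at the pulse, 13.9 and 19.7 at 3 h, 5.40 and 9.23 at 6 h, and 0 and 5.16 at 12 h. Both 6 h values and both 12 h values are below all 4 earlier ones. nAChRalpha7 ranged from 0.350 to 20.1 TPM, nAChRalpha3 from 0.0292 to 5.50 and nAChRbeta2 from 0 to 51.3. nAChRbeta1 was at 20.5 and 95.0 TPM at the pulse, then at 0 in all 3 later libraries of replicate 1 and at 42.1, 15.0 and 3.13 in those of replicate 2. nAChRalpha2 was at 0 in both pulse libraries and 0 to 11.9 TPM afterwards, and nAChRbeta3 was at 13.5 TPM in pulse replicate 2 and at 0 in the other 7 libraries. The order by median was nAChRalpha4 (29.7 TPM), nAChRalpha5 (17.7), nAChRalpha7 (12.5), nAChRbeta2 (12.2), nAChRalpha1 (10.6), nAChRbeta1 (9.07), nAChRalpha6 (7.51), nAChRalpha3 (2.86), nAChRalpha2 (1.73) and nAChRbeta3 (0). Here too all neighbours overlapped. nAChRalpha4 exceeded nAChRalpha5 in 6 of 8 libraries and nAChRalpha6 exceeded nAChRalpha3 in 7 of 8, whereas nAChRalpha7 exceeded nAChRbeta2 in only 2 although its median is higher.

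The make-up of the family within a library does not depend on how libraries are scaled to each other. Alpha subunits held a median of 95.4% of the summed TPM of the family in neurons (73.7% to 100%) and 76.9% in neuroblasts (39.7% to 100%), and these ranges overlap. nAChRalpha6 led most neuron libraries, nAChRalpha5 was first or second in 4 of 8, and nAChRalpha1 took the first place in the remaining 2. In neuroblasts first place was shared by 5 genes, nAChRalpha4 in 3 libraries, nAChRbeta1 in 2, and nAChRalpha5, nAChRalpha6 and nAChRalpha7 in 1 each. The single library led by nAChRalpha7 is the 12 h library with 15 counts. These ranks depend on division by transcript length. By counts, nAChRalpha1 led neuroblast pulse replicate 1 (2221, nAChRalpha4 1635) and 3 h replicate 2 (2984, nAChRbeta1 1054). nAChRalpha5 led pulse replicate 2 (812, nAChRbeta1 793) and 6 h replicate 1 (1091, nAChRalpha4 533). The other neuroblast libraries kept their leader. In neurons only pulse replicate 2 changed, to nAChRalpha1 (144073, nAChRalpha6 76662).

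**Figure D2:**
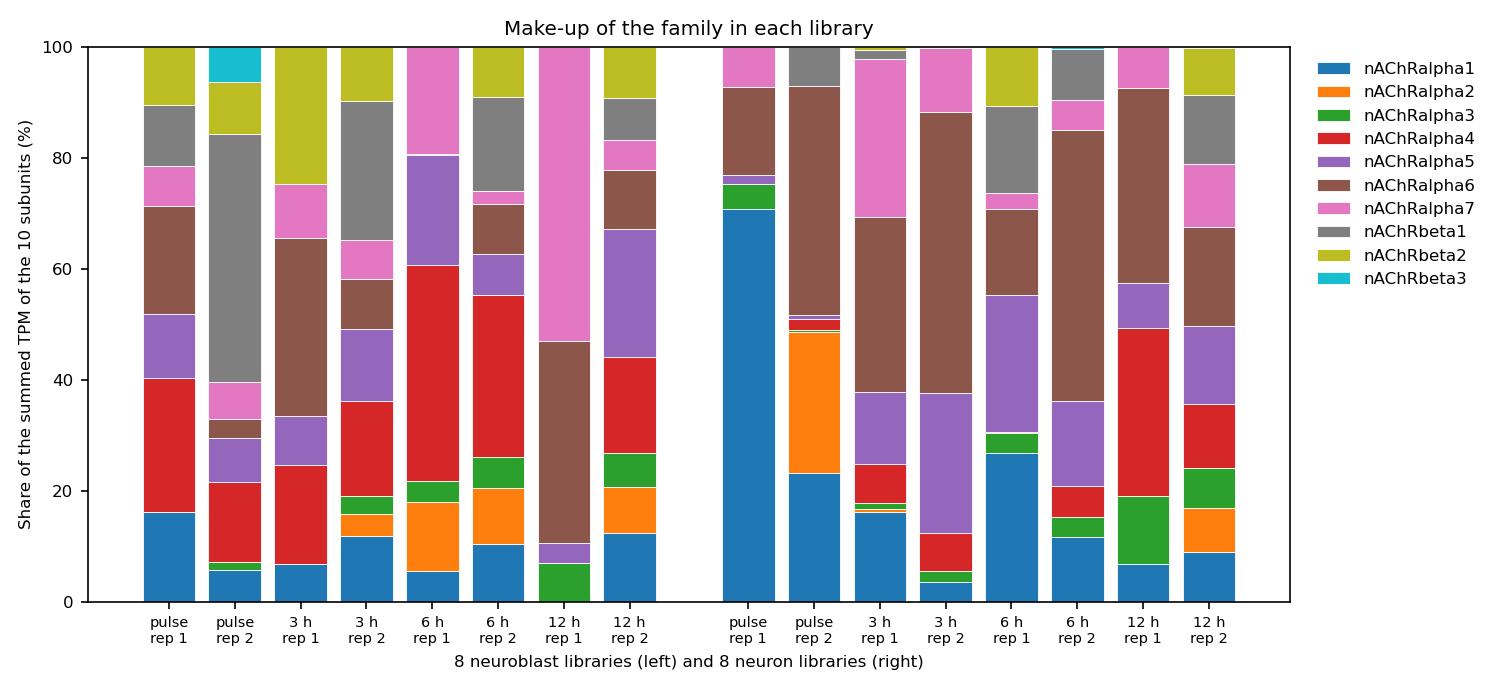
Share of each subunit in the summed TPM of the 10 subunits (bar segments, percent) in each of the 16 libraries, neuroblasts on the left and neurons on the right. nAChRalpha6 is the largest segment in 6 of 8 neuron libraries, while no subunit leads more than 3 of the 8 neuroblast libraries.

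The first comparison the design allows is between cell types at each time point. Both neuron libraries lay above both neuroblast libraries for 1 of the 10 subunits at the pulse (nAChRalpha1), where 1.07% of all genes with a count did so. At 3 h this held for 4 subunits (nAChRalpha3, nAChRalpha5, nAChRalpha6 and nAChRalpha7; 8.42% of all genes), at 6 h for 6 (those 4 with nAChRalpha1 and nAChRbeta1; 12.1%), and at 12 h for 7 (nAChRalpha1, nAChRalpha3 to nAChRalpha7 and nAChRbeta3, the last with 2 and 42 counts; 31.6%). The opposite order held at the pulse for 4 subunits (nAChRalpha4, nAChRalpha5, nAChRalpha7 and nAChRbeta2), where 54.9% of all genes had it, at 3 h for nAChRbeta2 (23.2%), at 6 h for nAChRalpha2 and nAChRalpha4 (18.5%) and at 12 h for none (2.47%). Over the 16 same-time pairs of libraries, nAChRalpha1 and nAChRalpha6 were higher in neurons in 15, nAChRalpha3 in 14, nAChRalpha5 and nAChRalpha7 in 12, nAChRbeta1 in 9, nAChRbeta3 in 8, nAChRalpha2 and nAChRalpha4 in 7 and nAChRbeta2 in 5.

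No subunit passed the test at any time point. By edgeR's quasi-likelihood test over 12787 genes with Benjamini-Hochberg adjustment, 0 of 10 subunits were called at each time point and the background was also 0% of genes called. At an unadjusted p under 0.05 there was 1 subunit at the pulse, nAChRalpha2, lower in neuroblasts (adjusted p = 0.390 by edgeR). It had counts in only 1 of the pulse libraries, neuron replicate 2. There were 0 such subunits at 3, 6 and 12 h, and the shares of all genes at the 4 time points were 8.07%, 4.45%, 3.97% and 3.2%. nAChRalpha1 was lower in neuroblasts by fitted log2 differences of −6.40 (SE 3.96), −2.47 (3.30), −4.67 (3.65) and −4.49 (3.62) at the 4 time points, and nAChRalpha6 by −6.06 (3.87), −3.55 (3.43), −5.70 (3.80) and −5.24 (3.72), with adjusted p of 0.390 to 0.902 over these 8 values. The median fitted difference of the 10 subunits, neuroblast minus neuron, was −2.33 at the pulse against 6.09 for all genes, −2.71 against 0 at 3 h, −3.38 against −0.00443 at 6 h and −4.48 against −3.11 at 12 h. The fitted difference was below 0 for 7, 7, 8 and 10 of the 10 subunits at the 4 times, and for 19.3%, 48.5%, 50% and 76.4% of all genes. The direction at the pulse turned in 3 alternatives. The median of the subunits was 2.13 against 9.99 for all genes under scaling by total count alone (3 of 10 below 0), 0.82 against 9.72 without neuron pulse replicate 2 (4 of 10) and 0.37 against 6.38 with the replicate block within each cell type (4 of 10).

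This comparison changed with the test and with the neuron libraries used. By DESeq2 nAChRalpha1, nAChRalpha2, nAChRalpha3 and nAChRalpha6 were lower in neuroblasts at the pulse (9.75% of all genes with an adjusted p) and 0 subunits at the other times. The value for nAChRalpha2, −34.4 log2, rests on 1 library, with 33378 counts in neuron pulse replicate 2 and 0 in every other pulse library. For nAChRalpha3 the pulse levels overlapped, at 0.0427 and 3.13 TPM in neuroblasts and 3.08 and 1.76 in neurons. With the 4 neuron libraries of replicate 1 left out, edgeR called nAChRalpha1, nAChRalpha2 and nAChRalpha6 lower in neuroblasts at the pulse (5.02% of genes), where the lone neuron library of each time point is assumed to vary like the other groups. In bulk RNA of this kind, fewer cells of a type and less RNA per cell cannot be told apart.

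The second comparison is the course of each subunit over the chase. Slopes were fitted on hours of chase to counts scaled within each cell type, so a slope below 0 means that the share of a gene in the tagged RNA went down, not that a decay rate was measured. In neuroblasts 9 subunits passed the filter on low counts and nAChRbeta3 did not. The slopes, in log2 per hour, were −0.22 (SE 0.168) for nAChRalpha1, −0.20 (0.182) for nAChRalpha6, −0.18 (0.183) for nAChRalpha4, −0.18 (0.251) for nAChRalpha7 and −0.12 (0.166) for nAChRalpha5. The beta subunits were at −0.23 (0.267) for nAChRbeta1 and −0.24 (0.292) for nAChRbeta2, and the remaining alpha subunits at 0.01 (0.367) for nAChRalpha3 and 0.41 (0.713) for nAChRalpha2. Thus 7 of 9 were below 0, as were 69.3% of all 10042 genes, and the median was −0.18 against −0.10 for all genes.

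None of these slopes passed. edgeR's quasi-likelihood test with Benjamini-Hochberg adjustment gave 0 of 9 subunits and 0.607% of all genes called, with adjusted p of 0.773 to 1.00 for the subunits, and 0 subunits had an unadjusted p under 0.05 (8.04% of all genes did). DESeq2 gave no adjusted p for any of the 9, and 0 had an unadjusted p under 0.05. With the replicate number as a block, 145 genes were called in place of 61, again with 0 subunits. Without the 12 h library of 15 counts the 7 slopes below 0 moved toward 0, to −0.14 for nAChRalpha1, −0.13 for nAChRalpha6, −0.08 for nAChRalpha4 and −0.03 for nAChRalpha5, and 0 genes were called in all. Without the other 12 h library the median of the subunits was −0.39 (−0.34 for all genes), and without all libraries of replicate 2 it was −0.59 (−0.51). Over these and the other fits with libraries left out, the slopes reached −0.79 for nAChRalpha1, −0.69 for nAChRalpha4, −1.20 for nAChRbeta1 and −1.25 for nAChRbeta2. In the fit of all 8 libraries 5 of 7 muscle markers and 2 of 5 tested fat body markers rose, with adjusted p under 0.05 by edgeR, and none of them was called without the 12 h library of 15 counts. The part of these tissues in the slopes of the subunits was not tested.

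In neurons the slopes were fitted to all 10 subunits, and they were −0.45 (SE 0.333) for nAChRalpha1, −0.59 (0.325) for nAChRalpha2, −0.31 (0.325) for nAChRalpha6 and −0.24 (0.358) for nAChRbeta1. nAChRalpha4 had −0.09 (0.267), nAChRalpha5 −0.03 (0.417), nAChRalpha7 −0.03 (0.393) and nAChRalpha3 0.09 (0.281), all within 1 SE of 0. nAChRbeta2 had 0.97 (1.06), with at most 1 count in either pulse library, and nAChRbeta3 had 0.41, for which no SE is given because the SE derived from F did not match the p of the test. In total 7 of 10 were below 0, against 33.7% of all 11800 genes, with 8 of 10 under DESeq2's size factors but 3 of 10 under scaling by total count alone. The median was −0.062 against 0.21 for all genes, and 0.12 against 0.39 with total counts.

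Again 0 subunits were called by edgeR (adjusted p 0.528 to 0.999), as were 0% of all genes, and 0 subunits had an unadjusted p under 0.05, which 10.4% of genes had. DESeq2 called nAChRalpha1 lower (5.78% of genes) and nAChRbeta2 higher over the chase (6.99% of genes), among the 9 subunits to which it gave an adjusted p. Without pulse replicate 2 the slope of nAChRalpha1 was at −0.09, nAChRalpha6 at −0.06, nAChRalpha2 at 0.39 and nAChRbeta1 at 0.27. That library holds the highest count of any subunit gene in the series, 144073 for nAChRalpha1, and without it 4 of 10 slopes were below 0, with a median of 0.20. The count over all genes turned on replicate 1: without its 4 neuron libraries edgeR called 3000 genes higher and 175 lower, and without its 12 h library 2697 higher and 10 lower, with 0 subunits in both.

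The third comparison is whether the course differed between cell types, tested as an interaction (neuroblast slope minus neuron slope). For genes, 0 of 10 subunits were called, against 0.571% of all genes, and 1 had an unadjusted p under 0.05, nAChRbeta3 (adjusted p = 0.137 by edgeR), while 14.4% of all genes did. That value rests on 1 neuroblast library with 108 counts and on 168 and 42 counts in 2 neuron libraries. The fitted interaction was below 0 for 8 of 10 subunits and for 75.1% of all genes, and for 4 of 10 under DESeq2's size factors and 9 of 10 under total counts, so no direction can be given for the family. DESeq2 called nAChRbeta2 and nAChRbeta3 lower in neuroblasts than in neurons (14.8% of genes). Its value for nAChRbeta3 was −8.76 log2 per hour, against −1.62 by edgeR, and rests on the same few libraries. The median biological coefficient of variation, the scatter of libraries around the fitted line relative to the mean, was 1.80 in the neuroblast slope fit and 2.98 in the neuron slope fit. In the fit of group means that compared cell types, where it is scatter around those means, it was 2.27.

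**Figure D3:**
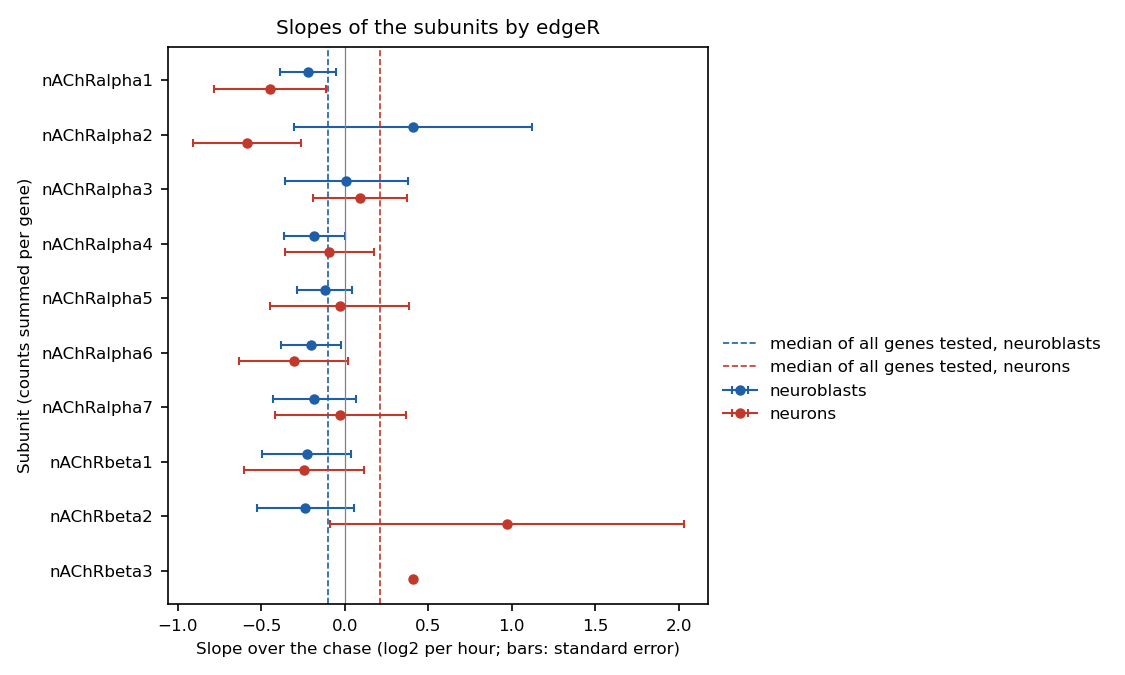
Slope of each subunit over the chase in log2 per hour (x axis; points with bars of 1 standard error) in neuroblasts (blue) and neurons (red), with dashed lines at the median of all genes tested and a grey line at 0. nAChRbeta3 is drawn without an error bar, since its SE did not match its p, and has no neuroblast value. All neuroblast slopes except those of nAChRalpha2 and nAChRalpha3 are below 0, and none of the 19 slopes passed the test.

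At the level of single transcripts the picture depended strongly on the library. nAChRalpha1, nAChRalpha2 and nAChRalpha3 were each held almost wholly by 1 transcript, FBtr0334916 with 93.1%, FBtr0084640 with 99.9% and FBtr0339652 with 96.7% of the counts of their gene over all libraries. nAChRbeta2 (FBtr0084682, 86.2%), nAChRbeta1 (FBtr0073299, 69.9%) and nAChRalpha4 (FBtr0308330, 62.6%) had a first transcript with most of the summed counts. For nAChRbeta2 that share comes mainly from 2 neuron libraries (2307 and 6633 counts), and the other transcript, FBtr0084681, led in 6 of the 11 libraries with at least 10 counts. nAChRalpha7 (FBtr0074680, 43.0%), nAChRalpha5 (FBtr0300594, 32.0%) and nAChRalpha6 (FBtr0079916, 28.2%) did not, and in nAChRalpha6 the lead passed among 6 of its 7 transcripts over the 14 libraries with at least 10 counts of the gene.

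The transcripts of nAChRalpha6 show how single libraries were filled by single rows. FBtr0079916 had 66789 estimated counts in neuron pulse replicate 2 and 33844 at 3 h replicate 2, and 0 in the other 6 neuron libraries. FBtr0079914 had 78032 at 3 h replicate 2, where FBtr0079912 had 0, and FBtr0079912 had 61005 at 6 h replicate 2, where FBtr0079914 had 0. Each of the 3 transcripts was thus abundant in some neuron libraries and absent from others.

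The same was seen in nAChRalpha4 in neurons. FBtr0308330 had 6505, 16663 and 9960 counts in replicate 2 at the pulse, 3 h and 6 h, and 0 at 12 h. At 12 h replicate 2 the counts of the gene were in FBtr0300118 (7368) and FBtr0346707 (5261), each at 0 in the other 3 neuron libraries numbered replicate 2. FBtr0346707 was also present at 12 h replicate 1 (2543 counts), so it is the only nAChRalpha4 transcript with at least 100 counts in both neuron libraries of a time point.

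Replicates did not settle these differences. Where a gene had at least 10 counts in both libraries of a group, the leading transcript was the same in 24 of 44 pairs (54.5%), close to the 53.6% of the 7030 other genes with more than 1 transcript. Of 115 cases of a subunit transcript with at least 100 counts in 1 library, 68 (59.1%) had under 1 count in the other replicate, and over all transcripts 59.6% did. Summed per gene, the same loss was seen in 14 of 65 cases (21.5%) for the subunits and in 40.4% for all genes. The gene sums are therefore the more stable reading of the family. The share of subunit transcripts with at least 10 counts was above that of all transcripts in 7 of 8 libraries of each cell type. In neuroblasts these shares lay close, from 30.30% against 30.27% in pulse replicate 1 to 39.4% against 31.0% at 12 h replicate 2. The gaps were wider in neurons, as in pulse replicate 2 (39.4% against 10.3%), but at 12 h replicate 2 the order was reversed (48.5% against 72.2%).

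Some annotated transcripts could not be separated. FBtr0084619 and FBtr0330310 of nAChRalpha1, which differ in coding length (1701 and 1791 bases), had equal estimated counts to within 0.1% in 16 of 16 libraries, 6 of them with a count. FBtr0309867 and FBtr0474155 of nAChRalpha5 (2424 and 2511 bases) were equal in 15 of 16.

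**Figure D4:**
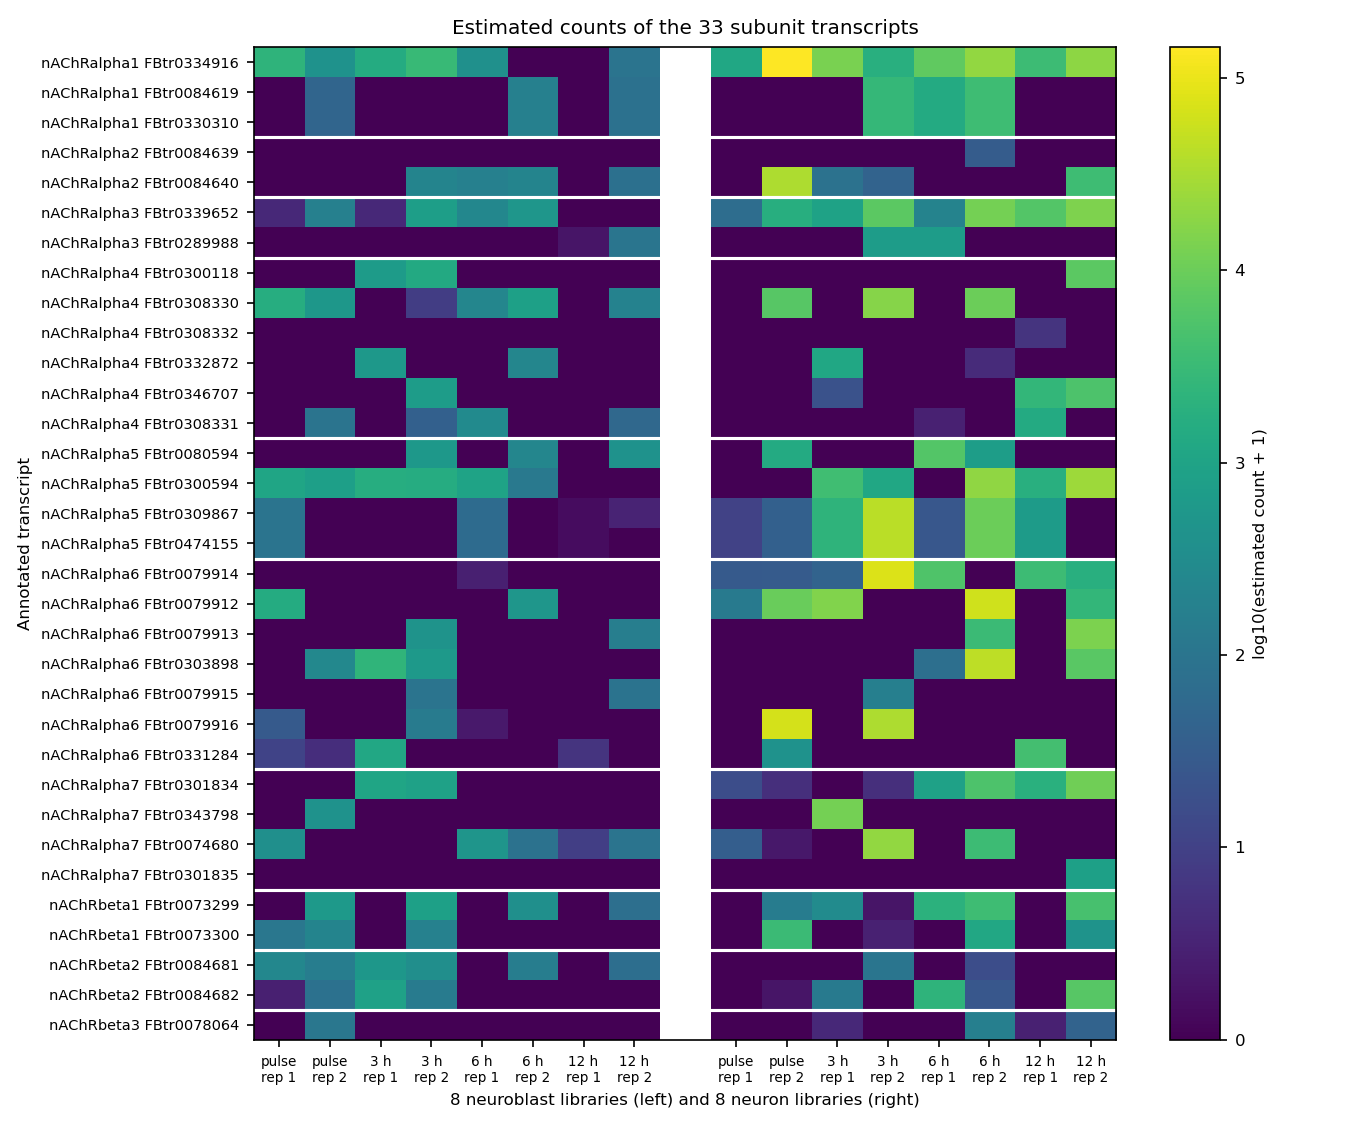
Estimated counts of the 33 subunit transcripts (rows, grouped by gene) in the 16 libraries (columns), as log10(count + 1) in colour from 0 (dark) upward. Bright cells beside dark ones within a gene and a pair of replicates are transcripts counted in 1 library and absent from the other, as in 68 of 115 cases.

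No subunit transcript passed a test by edgeR's quasi-likelihood test with Benjamini-Hochberg adjustment. In the neuroblast slopes 0 of 25 tested transcripts were called (0.0616% of all transcripts) and 0 had an unadjusted p under 0.05 (6.83%). In the neuron slopes 0 of 24 were called (0.0331%), and 2 had an unadjusted p under 0.05 (11.7%), FBtr0346707 of nAChRalpha4, higher over the chase (adjusted p = 0.367 by edgeR), and FBtr0079916 of nAChRalpha6, lower (adjusted p = 0.241). In the interaction 0 of 30 were called (3.09%) and 5 had an unadjusted p under 0.05, all lower in neuroblasts, as 16.4% of all transcripts did in that direction. The smallest adjusted p of these by edgeR was 0.0917, for FBtr0300118 of nAChRalpha4. DESeq2 called 4 subunit transcripts lower over the chase in neuroblasts (6.96% of all transcripts), FBtr0300118, FBtr0300594 of nAChRalpha5, FBtr0301834 of nAChRalpha7 and FBtr0303898 of nAChRalpha6. In neurons it called FBtr0303898 higher (6.21%) and 4 lower (9.92%), FBtr0308330, FBtr0334916, FBtr0079916 and FBtr0074680. In the interaction it called 5 higher in neuroblasts (7.09%), FBtr0074680, FBtr0079916, FBtr0308330, FBtr0332872 of nAChRalpha4 and FBtr0289988 of nAChRalpha3, and 8 lower (24.8%), FBtr0300118, FBtr0301834, FBtr0303898, FBtr0346707, FBtr0084682, FBtr0308331 of nAChRalpha4, FBtr0343798 of nAChRalpha7 and FBtr0078064, the single transcript of nAChRbeta3. The DESeq2 interaction values of FBtr0343798 and FBtr0078064 were −15.8 and −11.0 log2 per hour, against −0.135 and −1.43 by edgeR. FBtr0078064 had counts in only 1 neuroblast library. These DESeq2 values are too large to be read as sizes of a difference. With scaling by total count edgeR called FBtr0300118 lower in the interaction (4.37%). In neurons FBtr0300118 and FBtr0301835 of nAChRalpha7 were not among the 24 transcripts of the main slope fit. Each had at least 1 count in only 1 neuron library, 12 h replicate 2 (7368 and 866). Both were tested without neuron 12 h replicate 1, where 26488 transcripts passed the filter in place of 18103. Their calls in that fit, given next, thus rest on 1 library and show no course over the chase. Calls did appear when 1 library was left out: without neuron 12 h replicate 1, FBtr0300118 and FBtr0301835 of nAChRalpha7 were called higher over the chase (25.2% of all transcripts were) and FBtr0079916 and FBtr0331284 of nAChRalpha6 lower (0.883%). FBtr0079916 was also called lower with all replicate 1 libraries left out (0.306%).

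For 7 of the genes annotated transcripts fall into a group with a distal and a group with a proximal 3′ end, 1479 bases (nAChRalpha7) to 7201 bases (nAChRalpha1) apart. Summed over all libraries of a cell type, distal ends held most counts in both cell types for nAChRalpha1 (92.6% in neuroblasts, 93.2% in neurons), nAChRalpha3 (94.5% and 96.8%), nAChRalpha4 (83.0% and 94.8%), nAChRalpha6 (78.3% and 69.9%), nAChRbeta1 (78.9% and 68.6%) and nAChRalpha7 (69.2% and 54.7%). nAChRalpha5 was the exception, with 80.1% in neuroblasts and 29.9% in neurons. Within libraries the distal share of nAChRalpha5 ran from 0% to 100% in both cell types, so this difference is no larger than the spread between libraries. The sums hide the same spread in other genes. For nAChRalpha7 distal ends held most of the counts in only 3 of 7 neuroblast libraries (median 0%) and 5 of 7 neuron libraries (median 92.7%), and for nAChRalpha1, nAChRalpha3 and nAChRbeta1 the neuroblast range was also 0% to 100%, with most counts at distal ends in 5 of 7, 4 of 5 and 4 of 5 libraries. Longer transcripts give more fragments, which raises every distal share when counts are used.

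The list of m6A-modified transcripts that the study drew from other brain samples contains nAChRalpha3 to nAChRalpha7 and none of the other 5 subunits. The median slope was −0.18 for the listed and −0.22 for the unlisted subunits in neuroblasts and −0.03 and −0.24 in neurons, and these ranges overlap in both cell types.

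Genes that act with the receptors were read in the same way, from a list of 9 with roles in acetylcholine release, breakdown, sensing or receptor assembly. Their summed level was 110 to 440 TPM in neuroblasts (median 281) and 0.970 to 1450 in neurons (median 527). RIC-3, a chaperone of nicotinic receptor assembly, had medians of 127 TPM in neuroblasts and 74.1 in neurons. VAChT, the vesicular acetylcholine transporter, was at 22.4 and 99.2, and Ace, the acetylcholinesterase that ends the signal, at 29.7 and 136. The 9 anion-selective Cys-loop receptors, the inhibitory relatives of the nicotinic subunits, summed to 0.423 to 151 TPM in neuroblasts (median 96.8) and 33.8 to 1577 in neurons (median 666). Their members with the highest mean TPM included Rdl, the GABA-gated chloride channel subunit, with medians of 30.1 and 258 TPM. The others were GluClalpha, the glutamate-gated chloride channel, with medians of 23.9 and 61.7, and pHCl-1, with 5.62 and 59.3. In neuroblasts the medians of Lcch3 (15.6) and SecCl (6.02) were above that of pHCl-1. As with the nicotinic subunits, 0 genes of either list were called by edgeR in any of the gene-level comparisons.

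The genes whose level followed the summed count of the family most closely over the 16 libraries, by Pearson correlation of log2(CPM + 1) among 12777 genes, were msi (r = 0.931), eIF4EHP (0.915), cpo (0.914), Rbp6 (0.906) and Rip11 (0.902). All genes were read in the same 16 libraries, which differ in depth and mitochondrial content, and no test was made. Among the subunits, on the same log2(CPM + 1) scale, the 45 pairwise correlations had a median of 0.404 over the 8 neuroblast libraries (−0.367 to 0.956). Over the 8 neuron libraries the median was 0.378 (−0.305 to 0.875), and pairs of either sign occurred in both cell types. The neuroblast set includes the 12 h library of 15 counts, and correlations without it were not computed.

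The family was also set against markers of the tissue. The summed level of 8 neuronal markers was 96.7 to 1096 TPM in neuroblast libraries and 836 to 3035 in neuron libraries, with nSyb, the gene whose promoter drives the neuron label, at medians of 76.9 and 391. Neuroblast libraries therefore contained RNA of neuronal genes. Of the 8 neuroblast markers, dpn and l(1)sc had at least 10 counts in 1 of the 8 neuroblast libraries, wor and mira in 2, nab in 3, ase and insc in 5 and grh in 7. The summed level of all 8 neuroblast markers was 0.467 to 102 TPM in neuroblast libraries and 1.10 to 779 in neuron libraries, so these markers do not separate the labels. Relative to the neuronal markers, the subunits stood at a median of 21.2% in neuroblasts (0.681% to 40.0%; 21.5% without the 12 h library of 15 counts) and 42.4% in neurons (6.33% to 81.0%). The 4 neuron libraries of replicate 1 ran from 6.33% to 81.0% and those of replicate 2 from 18.6% to 51.3%, so the ranges of the cell types overlap by this measure too. Muscle markers in neurons were at 110 to 24451 TPM, with 110 to 2574 in replicate 1 and 10352 to 24451 in replicate 2, and glial markers at 0.162 to 3639. The part of these tissues in the level of the subunits was not tested.

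**Figure D5:**
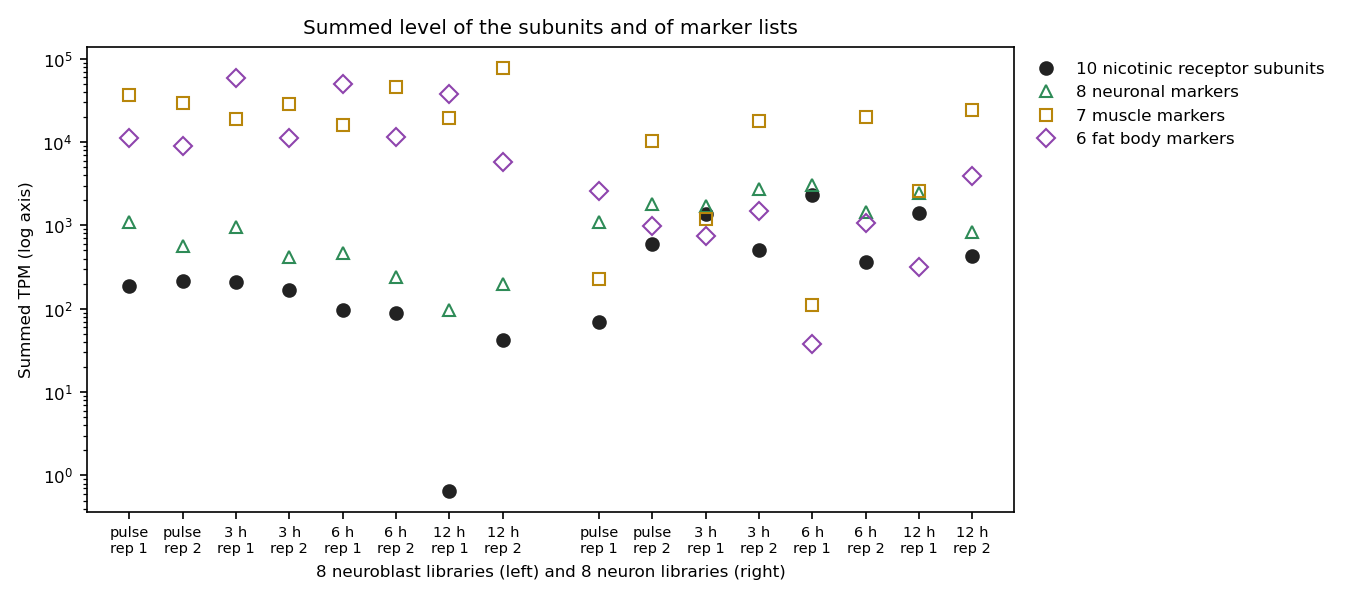
Summed TPM (log axis) of the 10 subunits (filled circles) and of 8 neuronal, 7 muscle and 6 fat body markers (open symbols) in each library, neuroblasts on the left and neurons on the right. The subunits stand at a median of 21.2% of the neuronal markers in neuroblasts and 42.4% in neurons, and muscle markers exceed both in all 8 neuroblast libraries.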

How the data were processed

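EC-tagged RNA of 16 libraries (8 groups of cell type and time, 2 each) was read from 2 tables of the whole series, with groups taken from the labels. Per the labels and the study's methods, the authors trimmed reads with Trimmomatic, pseudoaligned them with kallisto to BDGP6 transcripts and deposited estimated counts per transcript with no normalization, from total RNA captured by biotin and depleted of rRNA. Of the deposited estimated counts, 120 of the largest values are written with 3 digits. Versions of these tools are not given in the sources used here. Multi-mapped reads were split between transcripts by kallisto, so transcripts of 1 gene trade counts. Gene names, lengths and coordinates came from Ensembl release 115 (BDGP6.54), which matched 99.3% of transcripts. Rows without annotation held at most 0.332% of the counts of a library. They were left out of TPM. No sequences are printed.

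The members, and the lists of other genes and markers, were chosen with earlier results of these data known. Estimated counts were summed per gene or kept per transcript, rounded, filtered with filterByExpr, scaled by TMM and tested with edgeR 4.0.16 (quasi-likelihood F test, R 4.3.3), with Benjamini-Hochberg adjustment over all features and a threshold of 0.05. Slopes on hours of chase were fitted per cell type, their difference over all 16 libraries, and cell types were compared within a fit of 8 group means. The SE is the fold change divided by the square root of F. Levels are TPM over nuclear transcripts. All 10 subunits are named, with every transcript past a test and the leading one of each gene, the 3 genes of each other list with the highest mean TPM, and the 5 genes most correlated with the family. The text also names transcripts chosen after their values were seen. Libraries of the same number correlated in their deviations from the group means in all 6 pairs of neuroblast time points (lowest 0.100 over genes). The main fits had no term for the replicate number, which entered only as a block in an alternative. Whether libraries of the same number share a feeding is not known. Depth was 11053900 to 211110000 counts a library. Alternatives covered scaling, filter, DESeq2 1.42.0, the replicate block, the 12 h to pulse contrast and each library left out. Fits were run on simulated data. Transcript fits were simulated only at a variation well below that of the data, whose median biological coefficient of variation was 2.79 to 3.61 for transcripts. Those runs do not show what the transcript tests could detect. Tables were handled with Python 3.11.15 and pandas 2.3.3.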

Additional observations from a re-analysis of the deposited data

How the results depend on the processing

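Subunits were called only in a few alternatives. By DESeq2's Wald test the counts of subunit features called were 4 (neuroblast transcript slopes), 2 (neuron gene slopes), 5 (neuron transcript slopes), 2 (gene interaction), 13 (transcript interaction) and 4 (cell types at the pulse), against 0 by edgeR in each. Scaling by total count gave 1 call in the transcript interaction. Replicate 2 neuron libraries alone, an alternative chosen after seeing the data, gave 3 at the pulse. With single replicates or libraries left out, the count ran from 0 to 4 in the neuron transcript slopes and was 0 in all other comparisons. The cause was not tested. The same alternatives moved the counts over all features: neuroblast gene slopes gave 61 by edgeR, 982 by DESeq2, 735 higher with DESeq2's size factors and 1 with total counts, the gene interaction 73 and 2289, the transcript interaction 711 and 7345, the neuroblast transcript slopes 10 and 1378, the neuron gene slopes 0 and 747 and the neuron transcript slopes 6 and 2127.

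With the replicate block, neuroblast gene calls went from 61 to 145 and neuroblast transcript calls from 10 to 49. With the block fitted within each cell type, gene interaction calls went from 73 to 0 and transcript interaction calls from 711 to 33. In neurons 4 of 6 pairs of time points correlated above 0.1, with a median of 0.200 over genes (0.0404 to 0.299), beside a median of 0.152 in neuroblasts. The neuron libraries of replicate 1 also shared a high mitochondrial content, so the number marked a common structure there too. With the block, gene calls in neurons stayed at 0. The block changed the call of no subunit, and among the gene slopes of the 2 cell types it turned that of nAChRalpha4 in neurons, to 0.11. Of the transcript slopes, 16 of 25 were below 0 with the block in neuroblasts in place of 17, and 13 of 24 in neurons in place of 11.

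Several slopes changed sign. Scaling by total count gave −0.12 for nAChRalpha3 in neuroblasts and, in neurons, 0.15 for nAChRalpha4, 0.0790 for nAChRalpha5, 0.0922 for nAChRalpha7 and 0.19 for nAChRbeta1. The 12 h to pulse contrast, per hour, gave −0.00595 for nAChRalpha3 in neuroblasts, and 0.0736 for nAChRalpha5 and 0.25 for nAChRalpha7 in neurons. DESeq2's size factors and its test both gave −0.0737 for nAChRalpha3 in neurons. Leaving out both neuron pulse libraries gave 0.34 for nAChRalpha2 and 0.0946 for nAChRalpha4.

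With replicates or libraries left out, neuroblast slopes ran from −0.10 to 0.68 for nAChRalpha3 and −0.59 to 0.0174 for nAChRalpha6, and neuron slopes from −2.23 to 0.39 for nAChRalpha2, −0.0120 to 0.32 for nAChRalpha3, −0.19 to 0.44 for nAChRalpha4, −0.11 to 0.16 for nAChRalpha5, −0.39 to 0.12 for nAChRalpha6, −0.10 to 0.11 for nAChRalpha7 and −0.37 to 0.81 for nAChRbeta1. Where 1 library was left in a group, it was assumed to vary like the others. The count of subunits called at 3, 6 and 12 h between cell types was 0 in every alternative run.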
